A study of Mus musculus with 4 samples.

Results

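The proteasome and its immunoproteasome form were followed in the blood monocytes and neutrophils of adult C57BL6 mice through 50 genes, out of 43346 entries with a gene identifier. The members were all protein-coding genes whose symbol is Psm, a letter from a to g and a digit, and 48 of them had enough counts to be tested. Total RNA from peripheral blood was sequenced in 4 libraries, 2 of monocytes (MON) and 2 of neutrophils (NEU), from animals of the same strain and stage with no treatment named. By the labels, monocytes were sorted out of the mononuclear layer of a Ficoll gradient as cells positive for Gr-1 and Mac-1, both surface proteins, and neutrophils were what remained in the pellet after lysis of red cells, with no mention of sorting. The study's supplement gives the monocyte gate as Ly6g- and CD11b+ (Mac-1), the neutrophils as unsorted, and the animals as male mice a few weeks old. In it, a replicate can be another group of mice or a separately handled aliquot from the sorter, so p-values here measure the spread between these samples, which may be technical.

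The proteasome is the main protease of the cytosol and nucleus and degrades proteins that carry ubiquitin chains. Its 20S core is a barrel of 4 stacked rings, in which alpha subunits form the outer gates and beta subunits the inner rings, and only the beta1, beta2 and beta5 subunits cut peptide bonds. A 19S cap on the core, made of a ring of ATPases and a set of non-ATPase subunits, binds ubiquitin chains, removes them and threads the unfolded protein into the barrel. In cells of the immune system, and in other cells under interferon gamma, the catalytic subunits can be exchanged for Psmb9 (beta1i), Psmb10 (beta2i) and Psmb8 (beta5i), which gives the immunoproteasome. The PA28 activator, built from Psme1 and Psme2, can sit on the core in place of a cap. These changes are best known for supplying peptides to class I molecules of the major histocompatibility complex (MHC), and assembly chaperones such as Psmg1 to Psmg4 build the core.

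The expected counts, which are read numbers estimated by RSEM, summed to between 20549572 and 26076261 per library. The monocyte markers fixed for the cell type check summed to 5756 and 5795 counts scaled by library size (CPM) in the monocyte libraries and to 563 and 556 CPM in the neutrophil libraries, and 8 of 10 were called higher in monocytes. Among the others, F13a1 was called higher in neutrophils (60.2 and 61.4 CPM, against 21.9 and 23.2) and Ly6c2 was not called. The neutrophil markers summed to 7117 and 7370 CPM in neutrophil libraries and to 314 and 342 CPM in monocyte libraries. Ly6g and Camp had 0 counts in both monocyte libraries. Of the 9 neutrophil markers, 8 were called higher in neutrophils. The other, Retnlg, was called higher in monocytes and had 224 and 236 CPM there, against 173 and 197. Markers of other blood cells moved with the comparison too. All 12 natural killer (NK) cell markers were called higher in the monocyte libraries (2910 and 2960 CPM in sum, against 38.0 and 39.9), all 8 B cell markers higher in the neutrophil libraries (4496 and 4380 CPM, against 700 and 821), and 6 of 8 T cell markers likewise (119 and 121 CPM, against 25.4 and 26.6). Of the dendritic cell markers 2 of 4 tested were called higher in monocytes, and of the platelet and red cell markers 3 of 6 and 4 of 6 were called higher in neutrophils. The part of these cells in the results below was not tested. In bulk RNA of this kind, fewer cells of a type and less RNA per cell cannot be told apart.

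Monocytes had the higher value of 32 of the 48 tested members and neutrophils that of 2, while 14 were not called (edgeR's quasi-likelihood test, Benjamini-Hochberg adjusted p under 0.05). Over all 14309 genes tested, the share called higher in monocytes was 20.8% and the share called higher in neutrophils 21.8%. For the 11890 tested protein-coding genes of the nucleus these shares were 23.4% and 22.4%. The members' median log2 fold change, monocyte over neutrophil, was 0.82, against a median of -0.06 over all genes tested. The 14 members that were not called had 10 positive and 4 negative values. Both monocyte libraries lay above both neutrophil libraries in CPM for 40 of the 48 members and the reverse held for 4, where the shares over all genes tested were 35.1% and 40%. At a stricter filter of 10 CPM in 2 libraries, 42 members remained, of which 33 were called higher in monocytes and 2 higher in neutrophils, with 30.9% and 30.3% of all 8470 genes called.

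The difference was not even across the machine. All 7 tested alpha subunits and 6 of 7 tested constitutive beta subunits were higher in monocytes, with median log2 fold changes of 1.44 and 0.93. In the 19S cap, 5 of 6 ATPases and 9 of 11 non-ATPases were higher in monocytes, with medians of 1.03 and 0.77. Of the 6 immunoproteasome genes, counting the Psme2 copy Psme2b, 4 were higher in monocytes and 1 in neutrophils, with a median of 0.62. Of the 3 remaining activators and inhibitors, 1 was higher in neutrophils and the others were not called, with a median of -0.56. Of the 7 assembly chaperones, 1 was called higher in monocytes, where 20.8% of all genes tested were, and their median was 0.60. Both monocyte libraries lay above both neutrophil libraries in CPM for 5 of the chaperones and the reverse held for 1. Over all genes tested these shares were 35.1% and 40%. Of the 10 members with the largest log2 fold change, 7 belonged to the alpha ring. The plot of fold changes by group shows these values with their errors.

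**Figure D1:**
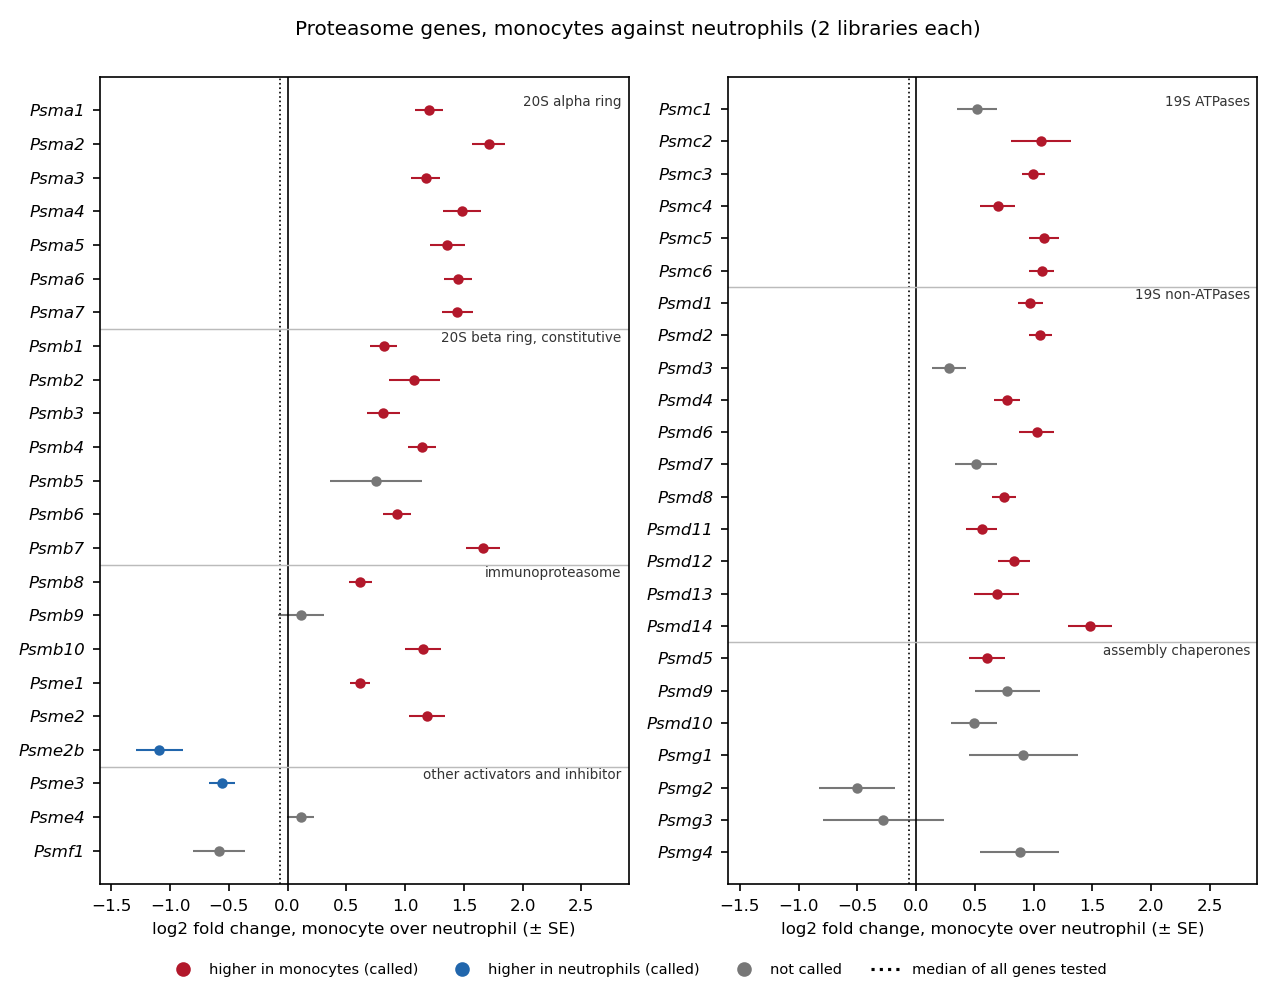
Log2 fold change of monocyte over neutrophil (x axis, ± SE, 2 libraries per cell type) for the tested proteasome genes (y axis), separated by lines into structural groups. Red points are called higher in monocytes, blue points higher in neutrophils and grey points are not called. The dotted line marks the median of all genes tested at -0.06, and all 7 alpha ring genes sit between 1.17 and 1.71.

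Sequences upstream of 6 members are given as examples. Psma6 and Psmd14 belong to the alpha ring and the cap. In these groups 7 of 7 and 14 of 17 tested members were called higher in monocytes. The other genes shown are the beta1 and beta5 pairs, in which a constitutive and an inducible subunit compete for a site. The sequences were read from RefSeq windows on GRCm38.p6 that hold 250 bases before and 50 after each annotated start. Such a window existed for 42 members. From the first 4 only the bases before the start outside any annotated exon are printed, 5′ to 3′ on the strand of the gene. From Psmb8 and Psmb9, where annotated exons of other transcripts cover the window, a stretch of 30 bases is shown. Capitals mark matches on either strand to the letters of an interferon regulatory factor element (IRF, GAAANNGAA), a gamma-activated site (GAS, TTCNNNGAA, its own reverse complement), an antioxidant response element core (ARE, TGACNNNGC), a CCAAT box (CCAAT) and a GC box (GGGCGG).
Psma6 (chr12:55383972-55384221, plus strand): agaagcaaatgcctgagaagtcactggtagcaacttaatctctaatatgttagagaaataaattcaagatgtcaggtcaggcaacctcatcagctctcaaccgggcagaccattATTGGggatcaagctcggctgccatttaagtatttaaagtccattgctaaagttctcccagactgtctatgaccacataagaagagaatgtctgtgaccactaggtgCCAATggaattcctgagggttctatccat
Psmd14 (chr2:61711444-61711693, plus strand): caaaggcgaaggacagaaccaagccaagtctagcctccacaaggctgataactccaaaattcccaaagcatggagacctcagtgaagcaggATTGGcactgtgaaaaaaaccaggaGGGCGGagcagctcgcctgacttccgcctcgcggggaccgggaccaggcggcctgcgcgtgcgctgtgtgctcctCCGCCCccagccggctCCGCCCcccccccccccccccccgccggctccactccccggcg
Psmb6 (chr11:70525107-70525356, plus strand): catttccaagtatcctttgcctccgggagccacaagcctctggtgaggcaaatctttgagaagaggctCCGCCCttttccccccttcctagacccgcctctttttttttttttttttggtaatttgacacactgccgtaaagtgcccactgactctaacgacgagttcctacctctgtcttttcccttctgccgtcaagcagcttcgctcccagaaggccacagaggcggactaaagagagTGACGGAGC
Psmb5 (chr14:54618023-54618245, minus strand): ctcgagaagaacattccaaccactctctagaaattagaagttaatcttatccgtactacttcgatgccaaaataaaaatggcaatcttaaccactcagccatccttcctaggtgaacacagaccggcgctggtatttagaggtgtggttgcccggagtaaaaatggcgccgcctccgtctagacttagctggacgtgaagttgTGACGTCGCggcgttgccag
Psmb8 (chr17:34198088-34198117, plus strand): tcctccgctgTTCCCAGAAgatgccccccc
Psmb9 (chr17:34187321-34187350, minus strand): gcgcagccgctgATTGGaaagccgagcccc

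The GC box was found in the windows of 23 of the 42 members (54.8%), against 35.7% of all 32851 windows. Of the alpha ring, Psma1, Psma2, Psma4 and Psma7 were among them, and Psma3 and Psma6 were not. A member was counted if any of its windows matched, while the share of all windows counts single windows. This can raise the shares of members, as Psmc2 and Psme2, for example, had windows at different starts. The CCAAT box was found in 15 members (35.7%, against 37.4% of all windows), the IRF letters in 7 (16.7%, against 8.56%), the ARE core in 6 (14.3%, against 12.4%) and the GAS letters in 3 (7.14%, against 8.30%). The GAS letters lay in the windows of Psmb8, Psmd2 and Psmg1, and the IRF letters in those of Psmb3, Psmb4, Psmc2, Psmd4, Psmd9, Psme1 and Psmg4. The ARE core began 47 bases before the start in Psmb5 and 9 bases before it in Psmb6. Motifs of these lengths can overlap each other, and a match is a description of letters only.

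Levels of different genes were compared after correction for length, as TPM rescaled so that the protein-coding genes of the nucleus sum to 1000000 in each library, called the level here. On this scale the median log2 ratio of all genes tested was -0.21 and that of the members 0.63, against -0.06 and 0.82 in the counts, so fold changes were taken from the counts. The members together had summed levels of 7641 and 7126 in the monocyte libraries and of 4433 and 4497 in the neutrophil libraries, or 0.738% and 0.446% of the protein-coding level on average. The levels of the 48 tested members followed much the same order in both cell types, with a Spearman's rho of 0.916 and a Pearson's r of 0.943 on the log2 scale across these genes, which share libraries and are not independent replicates. Psma2 had the highest mean level in monocytes (418 ± 46.3, SD, n = 2), followed by Psme1 (396 ± 83.2). In neutrophils Psme1 came first (290 ± 31.6), followed by Psmb8 (267 ± 15.8) and Psmb1 (228 ± 21.5). In monocytes the libraries of Psma2 and Psme1 overlapped, so their order is within the spread.

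**Figure D2:**
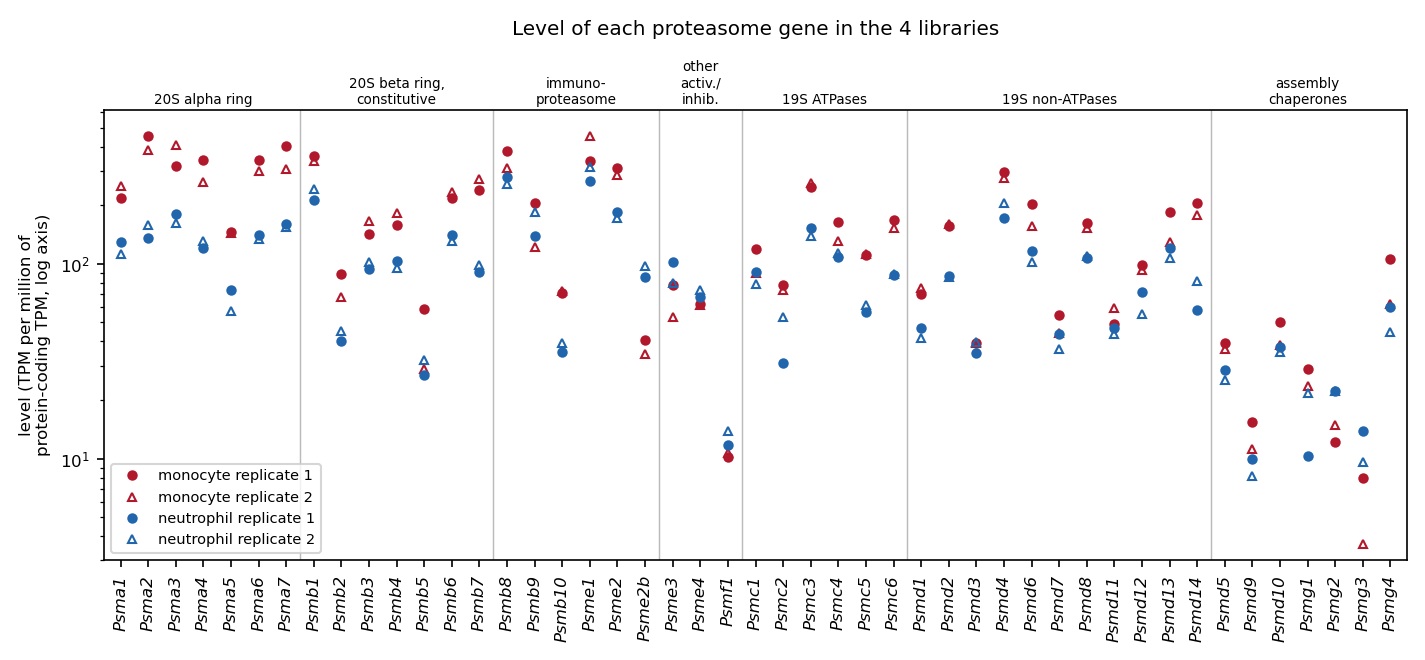
Level of each tested proteasome gene (x axis, by structural group) as TPM rescaled over nuclear protein-coding genes (y axis, log scale), with 1 point per library: red for monocytes, blue for neutrophils, filled circles for replicate 1 and open triangles for replicate 2. The red points of the alpha ring lie above the blue ones for every gene, and Psme2b shows the reverse.

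The alpha ring held the largest and most uniform difference. Psma2, an alpha subunit encoded at chr13:14613240-14674236 (GRCm38, plus strand), had levels of 451 and 385 in the monocyte libraries and of 135 and 158 in the neutrophil libraries. The monocyte libraries lay far above the neutrophil libraries, and the log2 fold change of 1.71 ± 0.14 (SE) was the largest of all members (edgeR adjusted p = 0.00047). Psma4, an alpha subunit on chromosome 9, had levels of 340.5 and 262 in monocytes and of 120 and 132 in neutrophils (log2 fold change 1.48 ± 0.16, edgeR adjusted p = 0.0013). Its groups did not overlap either. The other tested alpha subunits, Psma1, Psma3, Psma5, Psma6 and Psma7, had log2 fold changes between 1.17 and 1.45. The tested ring genes spanned a range of levels of 2.89-fold in monocytes (lowest Psma5, highest Psma2) and of 2.64-fold in neutrophils. Psma8, the alpha subunit known from testis, was not tested: it had 1 count in neutrophil replicate 1 and 0 elsewhere, and a count of 0 allows up to 3 counts per library, or 0.115 to 0.147 CPM, counting error only.

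Among the constitutive beta subunits, Psmb1, a structural subunit without a catalytic site, had the highest level, with 359 and 338 in monocytes and 213 and 243 in neutrophils. Its log2 fold change was 0.82 ± 0.11 (edgeR adjusted p = 0.0030), and the libraries of the cell types did not overlap. Psmb4, another structural beta subunit, had levels of 159 and 183 in monocytes and of 103 and 95.1 in neutrophils (log2 fold change 1.15 ± 0.12, edgeR adjusted p = 0.0010). Psmb2 and Psmb3, which fill structural positions as well, had log2 fold changes of 1.08 ± 0.22 and 0.81 ± 0.14. Both calls were lost when neutrophil replicate 1 was left out. Psmb11, the beta5 form known from the thymus, was not tested, with 5 counts in neutrophil replicate 1 and 0 in the other libraries.

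The catalytic subunits of the constitutive core differed from each other. Psmb7, the constitutive beta2 subunit at chr2:38588036-38644087, had levels of 240 and 273 in monocytes and of 90.8 and 98.6 in neutrophils, a log2 fold change of 1.66 ± 0.15 (edgeR adjusted p = 0.00062). Psmb6, the constitutive beta1 subunit at chr11:70525367-70527858, had levels of 219 and 234 in monocytes and of 140 and 131 in neutrophils (0.93 ± 0.12, edgeR adjusted p = 0.0025). For both genes the monocyte libraries stood clear of the neutrophil libraries. Psmb5, the constitutive beta5 subunit at chr14:54614119-54618022, had levels of 58.4 and 28.7 in monocytes and of 26.9 and 32.3 in neutrophils. On this scale monocyte replicate 2 fell between the neutrophil libraries, while in CPM it lay just above both (8.72, against 6.99 and 8.58). The log2 fold change of 0.76 ± 0.39 was not called (edgeR adjusted p = 0.18). It was 1.16 without monocyte replicate 2 and 0.15 without monocyte replicate 1.

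The inducible catalytic subunits Psmb8 and Psmb10 were called higher in monocytes, and Psmb9 was not called. Subtracting the constitutive from the inducible log2 fold change gave -0.82 at beta1, -0.51 at beta2 and -0.14 at beta5. At beta5 the constitutive Psmb5 was itself not called. These differences of fold change were not tested. Psmb8, the beta5i subunit at chr17:34197721-34201454, had levels of 379 and 309 in monocytes and of 278 and 256 in neutrophils. All monocyte values were above all neutrophil values, with a log2 fold change of 0.62 ± 0.10 (edgeR adjusted p = 0.0046); limma on log2(TPM + 1) gave an adjusted p of 0.078. Psmb9, the beta1i subunit at chr17:34181987-34187764, had levels of 205 and 122 in monocytes and of 139 and 184 in neutrophils. The groups overlapped, the highest and the lowest value both came from monocytes, and the log2 fold change of 0.11 ± 0.19 was not called (edgeR adjusted p = 0.68). Without monocyte replicate 1 its sign turned, to -0.18. Psmb10, the beta2i subunit at chr8:105935735-105938444, had levels of 71.1 and 72.5 in monocytes and of 35.1 and 39.4 in neutrophils, with no overlap and a log2 fold change of 1.15 ± 0.15 (edgeR adjusted p = 0.0027).

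Each catalytic site holds either the constitutive or the inducible subunit, so the inducible transcript was expressed as a share of the pair, by TPM. At the beta1 site Psmb9 made up 48.4% and 34.2% in the monocyte libraries and 49.8% and 58.4% in the neutrophil libraries, a difference of -12.8 percentage points. At the beta2 site Psmb10 made up 22.8% and 20.98% in monocytes and 27.9% and 28.6% in neutrophils (-6.31 points). At the beta5 site Psmb8 made up 86.7% and 91.5% in monocytes and 91.2% and 88.8% in neutrophils (-0.916 points). The shares of the beta1 and beta2 sites were lower in both monocyte libraries than in either neutrophil library, and those of beta5 overlapped. A two-sided exact permutation test of 2 against 2 libraries cannot go below p = 0.333, and it gave 0.333, 0.333 and 1, or 0.5, 0.5 and 1 adjusted over the 3 sites. Leaving out single libraries, the difference ranged from -19.9 to -5.69 points at beta1 and from -3.34 to 1.51 points at beta5. Within every library the beta5 share was the highest of the 3 sites and the beta2 share the lowest. These are shares of RNA, and the subunits built into particles were not measured.

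Relative to the core, the other groups took more of the RNA in neutrophils. The summed level of the 5 immunoproteasome genes of the rule (Psmb8, Psmb9, Psmb10, Psme1 and Psme2) was 0.374 and 0.371 of that of the core in monocytes and 0.549 and 0.581 in neutrophils. The 19S cap stood at 0.692 and 0.651 of the core in monocytes and at 0.867 and 0.870 in neutrophils. The assembly chaperones stood at 0.0747 and 0.0568 of the core in monocytes and at 0.110 and 0.101 in neutrophils. The neutrophil ratios were above the monocyte ratios for all 3 groups, with a two-sided exact permutation p of 0.333 each, the smallest that this design allows (0.467 adjusted over the 7 ratios computed). As shares of the protein-coding level, all of these sums were higher in monocytes except that of the other activators and inhibitor. The core was higher by 2.07 times, the cap by 1.60 times and the 5 immunoproteasome genes by 1.36 times. The median log2 ratio of all genes tested was -0.21 on this scale.

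**Figure D3:**
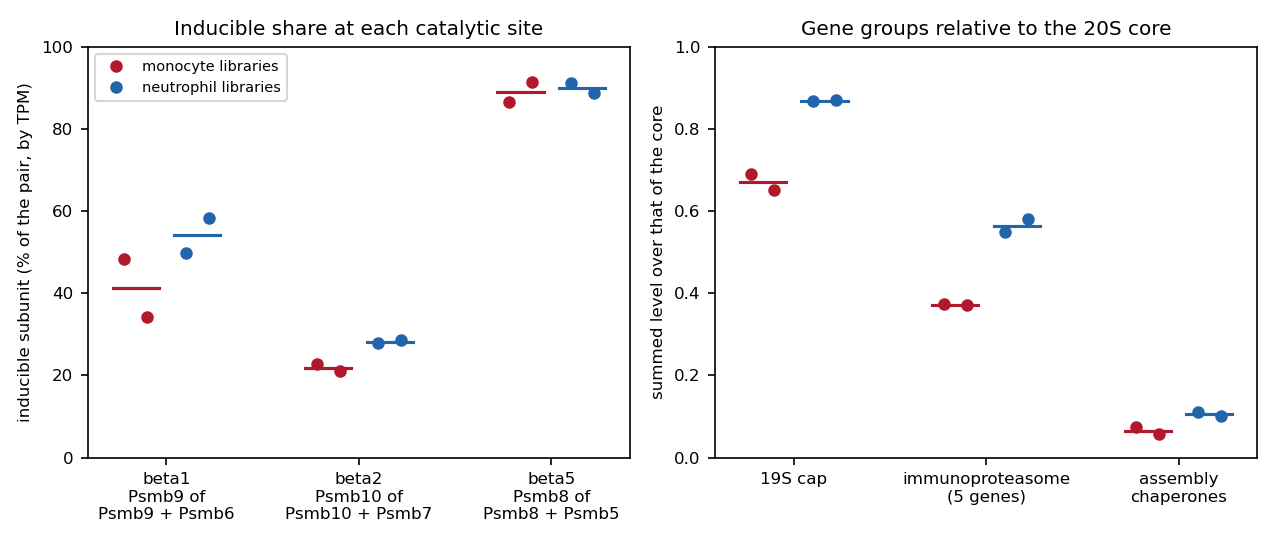
Left, inducible subunit as a percent of the inducible and constitutive pair (y axis, by TPM) at the beta1, beta2 and beta5 sites; right, summed level of the 19S cap, the 5 immunoproteasome genes and the assembly chaperones divided by that of the 20S core (y axis). Points are libraries and bars the means of 2, red for monocytes and blue for neutrophils, and the points do not overlap between cell types except at beta5.

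Among the PA28 activators, Psme1, the alpha subunit at chr14:55578123-55581529, had levels of 337 and 455 in monocytes and of 268 and 312 in neutrophils (log2 fold change 0.61 ± 0.09, edgeR adjusted p = 0.0034). Psme2, the beta subunit, is encoded 5911 bases away on the other strand and had levels of 310 and 285 in monocytes and of 185 and 172 in neutrophils (1.19 ± 0.15, edgeR adjusted p = 0.0024). Both genes were higher in both monocyte libraries. Psme2b, a near copy of Psme2 on chromosome 11 (chr11:48945354-48946190) whose annotated span equals the 837 bases of its transcript, went the other way. It had levels of 40.5 and 34.3 in monocytes and of 85.2 and 97.2 in neutrophils, with no overlap and a log2 fold change of -1.09 ± 0.20 (edgeR adjusted p = 0.0087). This call was lost without neutrophil replicate 2 (adjusted p = 0.0707).

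Psme2 and Psme2b may share reads, and the effect of this on their values was not tested. RSEM's posterior standard deviation of the count was at most 1.58% of the posterior mean for Psme2 and 5.19% for Psme2b. Their transcripts matched in 99.3% to 99.4% of the aligned bases, with 5 mismatches in 716 and in 794 aligned bases, and Psme2b lies inside 9930111J21Rik1 on the same strand. Psme2b took 11.5% and 10.7% of the level of the pair in monocytes and 31.6% and 36.1% in neutrophils. Summed over both genes, the pair had 99.8 and 88.5 CPM in monocytes and 53.4 and 65.6 CPM in neutrophils, a log2 ratio of 0.66, so the sum was higher in both monocyte libraries.

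Psme3 (PA28 gamma), which activates the core in the nucleus, was called higher in neutrophils. It had 44.3 and 44.8 CPM in monocytes and 68.1 and 63.1 CPM in neutrophils, a log2 fold change of -0.56 ± 0.11 (edgeR adjusted p = 0.012). By level its values were 78.1 and 53.4 against 102 and 79.3, so that monocyte replicate 1 lay only just under neutrophil replicate 2. With an offset for effective length its log2 fold change was -0.27 (adjusted p = 0.42), and the call was also lost under limma and without either neutrophil library. Psme4 (PA200), an activator known from chromatin and testis, had 119 and 99.6 CPM in monocytes and 102 and 101 CPM in neutrophils (0.11 ± 0.12, edgeR adjusted p = 0.48), and its sign turned with the length offset. Psmf1 (PI31), first described as an inhibitor of the core, had 9.71 and 10.96 CPM in monocytes and 14.3 and 16.7 CPM in neutrophils (-0.58 ± 0.22, edgeR adjusted p = 0.087).

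In the cap, the ATPases form the ring that unfolds substrates. Psmc3 had the highest level among them, with 248 and 260 in monocytes and 152 and 139 in neutrophils (log2 fold change 0.998 ± 0.099, edgeR adjusted p = 0.00095). Psmc5 had 110 and 112 in monocytes and 56.3 and 61.2 in neutrophils (1.09 ± 0.13, edgeR adjusted p = 0.0016), and Psmc6 had 168 and 152 against 87.4 and 89.0 (1.07 ± 0.11, edgeR adjusted p = 0.0010). In these genes the monocyte libraries lay well above the neutrophil libraries. Psmc2 and Psmc4 were higher in monocytes by 1.06 and 0.69 on the log2 scale, and both calls were lost without neutrophil replicate 1. Psmc1 was the ATPase that was not called (0.52 ± 0.17, edgeR adjusted p = 0.057), and it passed under DESeq2 (adjusted p = 0.0322) and 4 other alternatives.

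Among the non-ATPase subunits, Psmd4, a receptor of ubiquitin chains, had the highest level, with 295 and 275 in monocytes and 171 and 205 in neutrophils (log2 fold change 0.77 ± 0.11, edgeR adjusted p = 0.0034). Psmd14, the metalloprotease that cuts ubiquitin chains from substrates, had 205 and 177 in monocytes and 57.7 and 81.6 in neutrophils, and at 1.48 ± 0.19 the largest log2 fold change of the cap (edgeR adjusted p = 0.0022). Psmd2, the large scaffold subunit that docks ubiquitin receptors, had 157 and 161 against 86.8 and 85.7 (1.06 ± 0.10, edgeR adjusted p = 0.00071). All of these separated the cell types library by library. The called subunits Psmd1, Psmd6, Psmd8, Psmd11, Psmd12 and Psmd13 had log2 fold changes between 0.56 and 1.02, and the calls of Psmd11 and Psmd13 were lost under the length offset, limma and without either neutrophil library. Psmd3 (0.28 ± 0.14) and Psmd7, the inactive partner of Psmd14 (0.51 ± 0.18), were not called, with edgeR adjusted p values of 0.17 and 0.070.

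The assembly chaperones were the least expressed group, with a median level of 26.2 in monocytes and 22.2 in neutrophils. Psmd5, a chaperone of the ATPase ring, had levels of 39.4 and 36.5 in monocytes and of 28.4 and 25.4 in neutrophils and was the only one called (0.60 ± 0.15, edgeR adjusted p = 0.024), a call lost without either neutrophil library. Psmd9 and Psmd10, which also guide the ATPase ring, had log2 fold changes of 0.78 ± 0.28 and 0.49 ± 0.20 and were not called. Psmg4, a chaperone of the alpha ring and the most expressed of the group, had levels of 106 and 62.1 in monocytes and of 59.8 and 44.8 in neutrophils (0.88 ± 0.34, edgeR adjusted p = 0.088). Its monocyte libraries differed from each other about as much as from the neutrophil libraries. Psmg1, Psmg2 and Psmg3, which act in the same early steps, had log2 fold changes of 0.91 ± 0.46, -0.50 ± 0.32 and -0.28 ± 0.51 and were not called. Their counts lay between 55 and 198 per library. Psmc3ip carries a matching symbol as a binding partner of Psmc3 but is known from meiotic recombination and is no subunit; it had 0 and 64 counts in the monocyte libraries and 35 and 29 in the neutrophil libraries, and it was not called.

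Over all genes tested, the biological coefficient of variation was 45.6% between the monocyte libraries and 14.7% between the neutrophil libraries. These genes include some that are high in neutrophils and near 0 in monocytes, such as Lcn2 (14 and 0 counts) and Cd8a (66 and 2). The part of such genes in the monocyte value was not tested. For the members, the median log2 ratio of replicate 1 over replicate 2 was 0.088 in monocytes and -0.058 in neutrophils. Of the 48 members, 33 were higher in monocyte replicate 1 than in replicate 2, where 48.8% of all genes tested were. In neutrophils 21 of 48 were higher in replicate 1, with 49.3% over all genes. The members' transcripts were short, with a median effective length of 1012 bases, against 2256 for all tested protein-coding genes, and lengths hardly differed between the cell types (median ratio 0.994). Another annotated gene overlapped 19 members on the opposite strand and 10 on the same strand, and the sources used here do not give whether reads were counted by strand, so reads of such pairs may not have been told apart.

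Genes that work with the proteasome under other symbols were read from a list of 29 measured partners, of which 13 were higher in monocytes and 0 in neutrophils (edgeR, shares over all genes as above), with a median log2 fold change of 0.38. At an unadjusted p under 0.05, 1 partner was higher in neutrophils in edgeR (Ubqln4, which carries ubiquitinated proteins to the proteasome, -0.44 ± 0.16) and 0 in DESeq2. Pomp, the maturation factor that a new core needs to close, had 79.8 and 61.6 CPM in monocytes and 18.8 and 17.3 CPM in neutrophils, a log2 fold change of 1.97 ± 0.17 (edgeR adjusted p = 0.00060). Zfand2a, a stress-induced protein that binds the proteasome, had 55.3 and 64.4 CPM against 12.3 and 14.0 (2.19 ± 0.16, edgeR adjusted p = 0.00033). Both were separated by library without overlap. Ubb, a gene for ubiquitin itself, had the highest mean level of the list and was not called (0.30 ± 0.16, edgeR adjusted p = 0.19). Named for their role after their values were seen, Sem1 and Adrm1 are 19S subunits without a Psm symbol. Sem1, the smallest cap subunit, was higher in monocytes by 1.93 ± 0.15 on the log2 scale, and Adrm1, a ubiquitin receptor, had -0.07 ± 0.13 and was not called. Nfe2l1, a transcription factor known to drive proteasome genes when the proteasome is impaired, was chosen the same way and had -0.06 ± 0.12.

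Genes that carry peptides onto class I molecules were read beside the immunoproteasome. Calls were made for 7 of the 10, with 1 higher in neutrophils (Tap1) and 6 in monocytes, where 21.8% and 20.8% of all genes tested were called, and the list had a median log2 fold change of 0.78. B2m, the light chain of class I molecules, had 1397 and 1737 CPM in monocytes and 784 and 696 CPM in neutrophils (1.08 ± 0.13, edgeR adjusted p = 0.0018). The chaperones Calr (0.80 ± 0.08), Canx (1.38 ± 0.08) and Pdia3 (1.23 ± 0.15), which help class I molecules fold, were higher in monocytes as well. So were Erap1 (0.96 ± 0.11) and Tapbpl (0.75 ± 0.14). Tap2 (-0.03 ± 0.10), Tapbp (-0.25 ± 0.10) and Nlrc5 (0.30 ± 0.15) were not called. Tap1, a subunit of the transporter that takes peptides into the endoplasmic reticulum, had 109 and 108 CPM in monocytes and 165 and 166 CPM in neutrophils, a log2 fold change of -0.61 ± 0.08 (edgeR adjusted p = 0.0027). Its neutrophil libraries were higher without overlap, but with the length offset the value was -0.33 (adjusted p = 0.11) and limma on log2(TPM + 1) gave an adjusted p of 0.16.

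Psmb9 and Tap1 are neighbours that point away from each other on chromosome 17. Their RefSeq starts lie 226 bases apart, their windows share 275 bases, and their annotated genes overlap on opposite strands. The ratio of Psmb9 to Tap1 by level was 1.35 and 0.663 in monocytes and 0.591 and 0.742 in neutrophils, so the libraries overlapped (two-sided exact permutation p = 0.667, also when adjusted over the 7 ratios). Psmb8 lies 9956 bases from Psmb9 in the same part of the MHC.

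Genes of the interferon gamma response, the signal best known for inducing the immunoproteasome, were read as a further list. Calls were made for 7 of the 15 measured, with 5 higher in neutrophils and 2 higher in monocytes, where 21.8% and 20.8% of all genes tested were called, and the list had a median log2 fold change of -0.39. Ifngr1, a chain of the receptor, had 935 and 1074 CPM in monocytes and 160 and 149 CPM in neutrophils (2.70 ± 0.10, edgeR adjusted p = 4.6e-05). Irf1, a transcription factor that binds the promoters of immunoproteasome genes, had 207 and 202 CPM in monocytes and 186 and 206 CPM in neutrophils, with overlapping libraries (0.06 ± 0.09, edgeR adjusted p = 0.61). Igtp, an interferon-induced GTPase, had 16.3 and 15.6 CPM in monocytes and 31.1 and 33.8 CPM in neutrophils (-1.03 ± 0.15, edgeR adjusted p = 0.0036). The number called higher in neutrophils ranged from 2 to 8 as single libraries were left out and was 2 under limma.

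**Figure D4:**
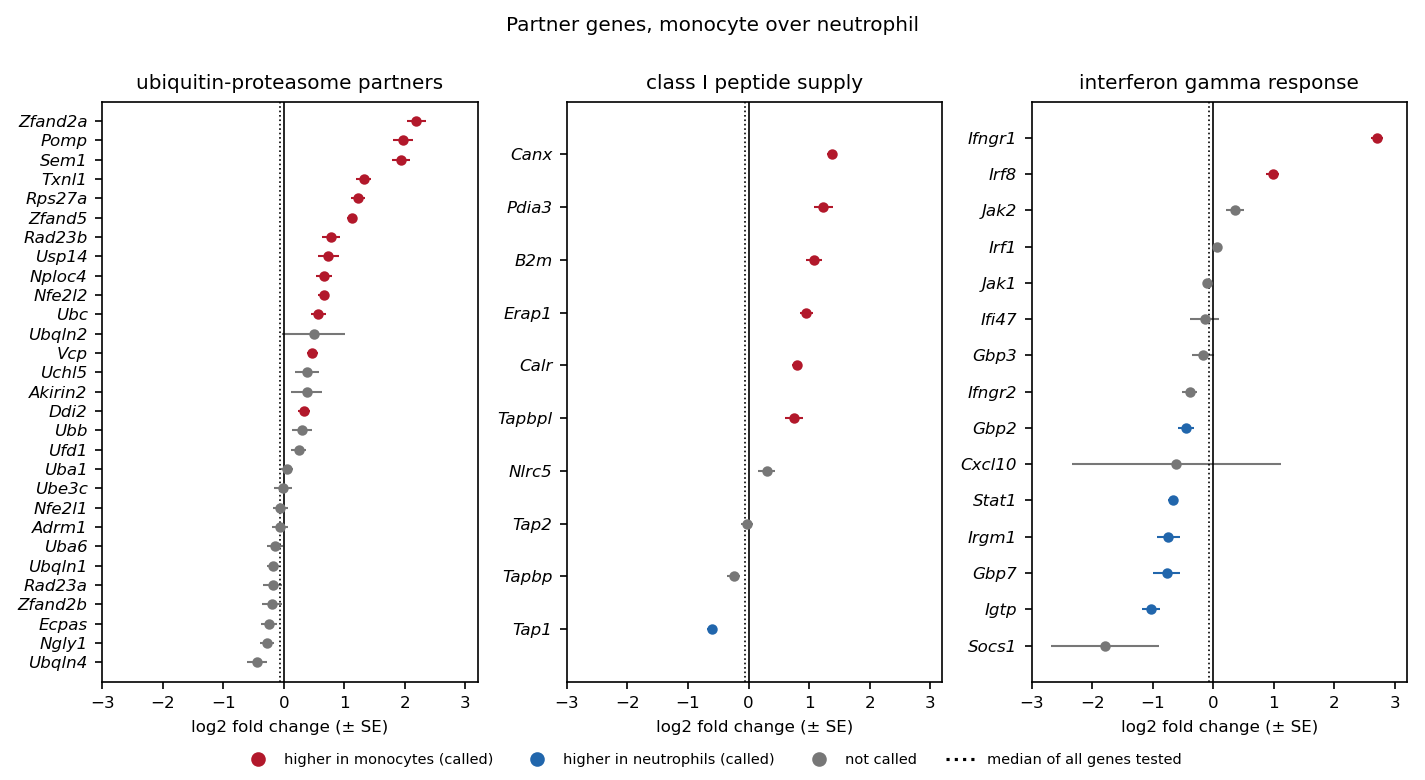
Log2 fold change of monocyte over neutrophil (x axis, ± SE, 2 libraries per cell type) for the genes (y axis, ordered by value) of 3 lists: proteasome partners, class I peptide supply and interferon gamma response. Colours mark the calls, red for monocytes, blue for neutrophils and grey for not called, and the dotted line is the median of all genes tested; Zfand2a, Pomp and Sem1 lead the partners and Tap1 is the class I gene called higher in neutrophils.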

How the data were processed

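Blood monocytes and neutrophils were profiled in 4 libraries of ribosomal RNA-depleted total RNA made with tagged random hexamers. The authors aligned reads to mm10 with STAR and quantified genes with RSEM. The deposited values are RSEM expected counts, posterior mean counts and posterior standard deviations of the count, TPM, which RSEM scales to the same sum over all entries, and effective lengths. Nuclear protein-coding genes held 7.84% to 10.1% of TPM, so levels were rescaled to them. Names and coordinates came from GENCODE M21, which matched 42462 identifiers.

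Rounded expected counts passing filterByExpr were tested with edgeR 4.0.16 (R 4.3.3; TMM; quasi-likelihood F test; adjusted over 14309 genes). SE is the log2 fold change over the square root of F. The pipeline was tested on simulated counts in which 200 genes differed and all 4 libraries had the same dispersion. The simulation did not cover the unequal spread of the real libraries or the number of genes called in them. DESeq2 1.42.0 and limma 3.58.1 were alternatives. Members, lists, and the naming rule (catalytic and PA28 genes, and the most expressed and most changed of each group or list) were chosen with earlier results of these data known. There are no molecular identifiers, and the upper limit given for libraries without counts of Psma8 covers counting error only. The SE values come from the quasi-likelihood F test and so include the estimated spread between libraries. 1 gene of the partner list is not reported here and was left out of its counts.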

Additional observations from a re-analysis of the deposited data

How the results depend on the processing

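Of the 34 called members, 24 kept call and direction in all 15 alternatives, among them all 7 alpha subunits, and 29 did so in the 11 alternatives that used all 4 libraries. The chaperones Psmg1, Psmg2 and Psmg3 had between 55 and 198 counts per library, and the part of depth in their missing calls was not tested. No paired analysis was possible because replicate numbers follow accession order only.

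Members called higher in neutrophils numbered 1 under limma (either pseudocount) and the effective length offset, and 0 to 4 as single libraries were left out. For the other activators these counts were 0 under the same settings and 0 to 2, for the immunoproteasome 0 to 1, and for Psmc3ip 0 to 1. ATPases higher in monocytes ranged from 3 to 6 and assembly chaperones from 0 to 4 when a library was left out. Under limma the partners had 9 calls higher in monocytes, the class I list 0 and the interferon list 2 higher in neutrophils; the class I count was also 0 with the length offset, with 0 (limma) and 1 (offset) at an unadjusted p under 0.05. Without single libraries these counts in neutrophils ranged from 0 to 2, 1 to 2 and 2 to 8. The beta2 difference was -7.38 points in CPM. In each case beyond the fewer libraries the cause was not tested.

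Over all genes tested, more were called without either monocyte library and fewer without either neutrophil library. Calls gained or lost in these fits, with 1 library left in a group, therefore do not single out the members. Without monocyte replicate 2, log2 fold changes were 1.16 (Psmb5), 0.69 (Psmc1), 0.63 (Psmd7), 0.98 (Psmd9), 0.66 (Psmd10), 1.17 (Psmg4) and -0.69 (Psmf1). These members were not called in the main test. Signs turned for uncalled genes as single libraries were left out, with log2 values from -0.18 to 0.33 (Psmb9), -0.040 to 0.22 (Psme4), -0.84 to 0.097 (Psmg3), -0.035 to 0.11 (Uba1), -0.023 to 0.11 (Irf1), -0.14 to 0.042 (Tap2), -0.044 to 0.67 (Akirin2), -0.19 to 0.035 (Nfe2l1), -0.19 to 0.10 (Ube3c), -0.18 to 0.0033 (Adrm1), -0.15 to 1.05 (Ubqln2) and -0.48 to 0.10 (Ifi47). Psmc3ip (-8.12 to 0.71) and Cxcl10 (-7.37 to 0.37) had 0 counts in monocyte replicate 1, so their lowest values depend on the prior count. The length offset gave -0.0055 (Psme4), -0.033 (Uba1) and 0.30 (Nfe2l1), and limma with pseudocounts of 1 and 0.1 gave 0.29 and 0.34 (Nfe2l1) and 0.0052 and 0.0077 (Ube3c).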
